A study of Mus musculus with 9 samples.

Results

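Genes made mainly by platelets and by the megakaryocytes that shed them were followed in mouse spleen. The 9 genes described here, of 21965 in the count table, were Pf4, Ppbp, Itga2b, Itgb3, Gp9, Gp5, Gp1bb, Gp6 and Treml1. They were taken by name after the Ensembl identifiers had been matched to mouse gene symbols. RNA-seq counts per gene had been deposited for 9 libraries from spleens of mice 16 weeks old. BWF1 mice are the first-generation cross of the NZB and NZW strains, whose females develop a lupus-like autoimmune disease. The groups were 3 BWF1 females, named in the series title as prone to lupus, and 2 groups named as not prone, 3 BWF1 males and 3 BALB/c females. No treatment, transgene or deletion was given for any group. BWF1 males differ from BWF1 females in sex, and BALB/c females differ from them in strain, whereas BWF1 males and BALB/c females differ in both. The labels disagree about the cells: splenocytes in the series title and design text, but sorted CD11b+F4/80+ macrophages in the labels of the single samples.

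Megakaryocytes are large polyploid cells that shed platelets into the blood. In mice the red pulp of the spleen holds megakaryocytes throughout life, and the spleen also stores circulating platelets. Platelets lack a nucleus but carry RNA from the megakaryocyte, so RNA of the genes above can come from either. Pf4 and Ppbp encode chemokines packed in platelet alpha granules, Itga2b and Itgb3 encode the paired subunits of the fibrinogen receptor, Gp9, Gp5 and Gp1bb encode subunits of the receptor complex for von Willebrand factor, Gp6 encodes a collagen receptor, and Treml1 encodes a receptor stored in alpha granules.

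The libraries were shallow for genes of this abundance. Gene counts per library ran from 458608 to 4305003, and 42.3% to 76.6% of them fell on 1 gene, Lars2. Only 1.29% to 2.82% of the reads in the count files were on genes. Of the other reads, 37.2% to 42.1% of the total fell in no gene and 55.9% to 61.5% had no unique place. A single count was worth between 0.208 and 2.21 CPM, the unit in which counts are put on a common library size, here with sizes corrected by the trimmed mean of M values (TMM). A gene at 0 counts in a library could therefore have stood at up to 3 counts, or between 0.625 CPM in BWF1 male 3 and 6.62 CPM in BWF1 female 1. Intervals and floors in this text cover counting error only, since the reads carried no molecular identifiers. The labelled macrophages were checked against their markers. The 10 macrophage and sorting gate markers summed to 201 to 224 CPM for BWF1 females, 408 to 622 CPM for BWF1 males and 317 to 395 CPM for BALB/c females, while 8 markers of B cells, which such a sort would remove, summed to 1957 to 2880 CPM over the 9 libraries.

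Of the 9 genes, 8 were detected and together held 682 counts. Gp1bb had 0 counts in every library. Pf4, Ppbp and the Itga2b subunit were higher in every BWF1 female library than in every BALB/c library, as were 6.93% of all genes tested. The difference passed the test for Pf4 and Ppbp, where 2.93% of all genes were called, but both calls ended under several alternative settings given below. Between BWF1 females and BWF1 males 0 of the 8 detected genes passed, against 2.09% of all genes. Between BWF1 males and BALB/c females 0 of the 8 passed, against 3.46% of all genes. Itgb3 alone held 385 of the 682 counts, or 56.5%, and was not higher in BWF1 than in BALB/c libraries. In bulk RNA of this kind, fewer cells or platelets of a type and less RNA in each cannot be told apart.

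**Figure D1:**
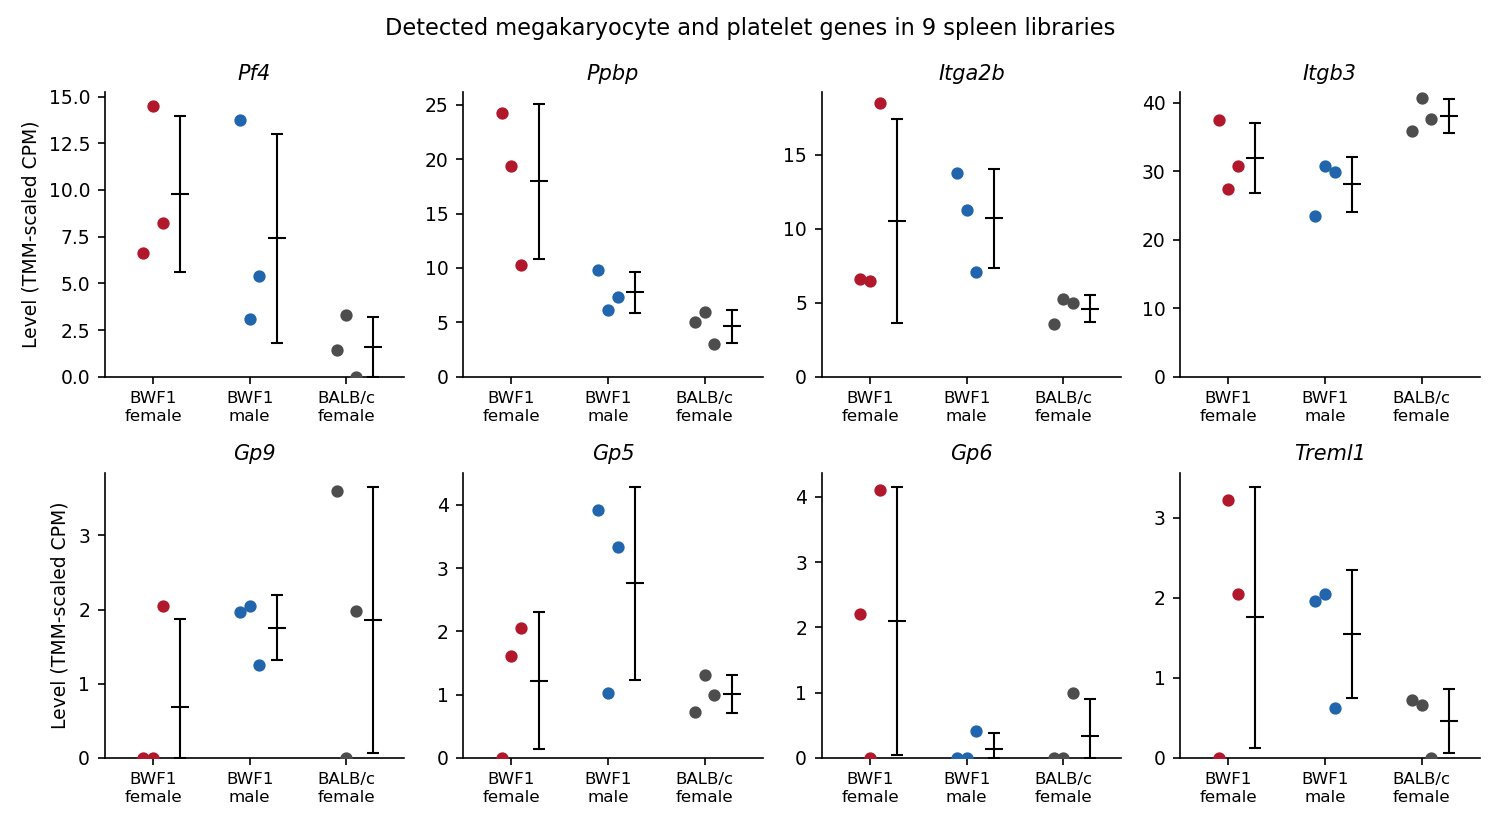
Level of each of the 8 detected genes (vertical axis, TMM-scaled CPM, from 0, with its own scale in each panel) in BWF1 female, BWF1 male and BALB/c female spleen libraries. Points are single libraries in replicate order and bars are the group mean and SD of 3 libraries, with the lower bar stopped at 0. Pf4, Ppbp and Itga2b are higher in every BWF1 female library than in every BALB/c library, Itgb3 is not, and the lower row rests on a few counts per library.

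Platelet factor 4, encoded by Pf4, binds heparin and similar sugars and is released when platelets are activated. It had 3, 9 and 4 counts in BWF1 females, 7, 3 and 26 counts in BWF1 males, and 2, 5 and 0 counts in BALB/c females. In levels these were 6.62, 14.5 and 8.21 CPM for BWF1 females, 13.7, 3.08 and 5.41 CPM for BWF1 males, and 1.44, 3.29 and 0 CPM for BALB/c females. All BWF1 females lay above all BALB/c females, and the BWF1 males spread across the range of the BWF1 females and reached below the highest BALB/c library. Group means were 9.78 ± 4.18 CPM for BWF1 females, 7.41 ± 5.60 CPM for BWF1 males and 1.57 ± 1.65 CPM for BALB/c females (SD, n = 3 each). The ratio of pooled levels, in which deeper libraries weigh more, was 5.75 between BWF1 females and BALB/c females, with a 95% counting interval of 2.24 to 16.5.

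Ppbp encodes the pro-platelet basic protein, which is cut to neutrophil-attracting chemokines. It had 11, 12 and 5 counts in BWF1 females, 5, 6 and 35 counts in BWF1 males, and 7, 9 and 3 counts in BALB/c females. The levels were 24.3, 19.4 and 10.3 CPM for BWF1 females, 9.81, 6.15 and 7.29 CPM for BWF1 males, and 5.03, 5.91 and 2.97 CPM for BALB/c females. The 3 groups did not overlap, with BWF1 females highest and BALB/c females lowest, although the lowest BWF1 female and the highest BWF1 male were close, as were the lowest BWF1 male and the highest BALB/c female. Means were 18.0 ± 7.10 CPM for BWF1 females, 7.75 ± 1.87 CPM for BWF1 males and 4.64 ± 1.51 CPM for BALB/c females (SD, n = 3 each).

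Both chemokine genes were tested with edgeR's quasi-likelihood test in a fit of all 15276 genes with at least 1 count, with Benjamini-Hochberg adjustment over all of them and a threshold of 0.05. Pf4 was higher in BWF1 females than BALB/c females by 2.47 on the log2 scale (SE 0.64, adjusted p = 0.00803), and Ppbp by 1.89 (SE 0.46, adjusted p = 0.00302). They were the only 2 of the 8 detected genes called in that comparison, in which 2.93% of all genes tested were called and 1.43% were called higher. The exact two-sided permutation test over libraries gave p = 0.1 for either gene, the smallest it can give with 3 against 3. In edgeR's fit of the 7719 filtered genes, of which 3.8% were called, Ppbp had an adjusted p of 0.0155, which adds no support, since Ppbp passed the filter through the 3 BWF1 female libraries alone. Pf4 did not pass that filter.

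The calls for both genes ended when library sizes were used without TMM scaling, when DESeq2 was used, when the tag in the file names entered the fit, and without BALB/c female 3. Adjusted p was then 0.125, 0.157, 0.0989 and 0.147 for Pf4, and 0.158, 0.0755, 0.0638 and 0.0641 for Ppbp. The Pf4 call also ended without BWF1 female 2 (adjusted p = 0.231), without BALB/c female 1 (0.058) and in edgeR's fit of genes with at least 10 counts (0.0541). The Ppbp call also ended without BWF1 female 1 (adjusted p = 0.062). In all of these settings both genes were higher in BWF1 females, with Pf4 between 2.04 and 3.46 and Ppbp between 1.60 and 2.17 on the log2 scale over the 19 alternative settings run. The file names carry 1 of 2 tags whose meaning the labels do not give, and all BALB/c libraries carry the same tag. Of the BWF1 females only replicate 2 shares it, and its 14.5 CPM of Pf4 and 19.4 CPM of Ppbp were above every BALB/c library. BWF1 male 2 shares the tag too and was the lowest male for both genes, with 3.08 CPM of Pf4, within the BALB/c range, and 6.15 CPM of Ppbp, just above it.

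Between BWF1 females and BWF1 males, the Ppbp difference of 1.26 on the log2 scale (SE 0.44) did not pass the test (edgeR adjusted p = 0.110), and neither did the Pf4 difference of 0.70 (SE 0.54, adjusted p = 0.649). In that comparison 0 of the 8 genes were called at an adjusted p under 0.05, against 2.09% of all genes tested, and Ppbp alone had an unadjusted p under 0.05 (0.00376), against 12% of all genes. DESeq2 and limma-voom also called 0. The pooled Ppbp level of BWF1 females was 2.45 times that of BWF1 males, with a counting interval of 1.48 to 4.01. Between BWF1 males and BALB/c females, Pf4 was higher by 1.77 on the log2 scale (SE 0.60, edgeR adjusted p = 0.0782), which is a call without BALB/c female 2 (2.77, adjusted p = 0.0453). Here too 0 of the 8 genes were called, against 3.46% of all genes tested, with 2 at an unadjusted p under 0.05 (Pf4 and Itga2b), against 13.2% of all genes, and 0 called by DESeq2 or limma-voom. The Ppbp difference was 0.63 (SE 0.45, adjusted p = 0.612). Both strain comparisons use the same 3 BALB/c libraries.

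Pf4 and Ppbp lie next to each other on the forward strand of chromosome 5. Ppbp occupies chr5:90768518-90770063 and Pf4 chr5:90772435-90773383 on mm10, with 2371 bases between them. Their upstream sequences are shown because these neighbours were the 2 genes that passed the test, and that of Gp5 because it held the most matches to the GATA motif, the site of the factors that drive megakaryocyte and red cell genes. Each is the 250 bases before the start of the RefSeq gene on GRCm38.p6, written 5′ to 3′ in the direction of the gene, from chr5:90768268-90768517 for Ppbp, chr5:90772185-90772434 for Pf4 and chr16:30310782-30311031 on the reverse strand for Gp5. Capitals mark matches on either strand to the GATA motif, that is GATA between A or T on its left and A or G on its right, or to the ETS-type motif CAGGAA.
Ppbp: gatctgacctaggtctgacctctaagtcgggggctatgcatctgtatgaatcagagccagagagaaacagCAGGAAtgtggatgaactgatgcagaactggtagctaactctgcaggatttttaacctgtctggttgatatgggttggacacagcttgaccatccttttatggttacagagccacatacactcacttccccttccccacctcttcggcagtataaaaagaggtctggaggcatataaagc
Pf4: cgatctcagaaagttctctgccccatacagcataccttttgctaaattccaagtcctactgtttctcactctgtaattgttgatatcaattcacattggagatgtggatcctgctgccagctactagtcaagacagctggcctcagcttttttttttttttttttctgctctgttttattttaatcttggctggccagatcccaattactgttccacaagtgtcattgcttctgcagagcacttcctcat
Gp5: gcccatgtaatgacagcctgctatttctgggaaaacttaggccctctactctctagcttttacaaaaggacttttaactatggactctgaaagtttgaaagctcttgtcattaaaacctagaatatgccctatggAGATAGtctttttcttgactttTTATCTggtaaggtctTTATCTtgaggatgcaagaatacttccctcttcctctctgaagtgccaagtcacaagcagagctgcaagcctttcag
The Gp5 window held 3 GATA matches, beginning 115, 93 and 77 bases before the start, and the Ppbp window held 1 CAGGAA match 180 bases before the start. The Pf4 window held neither. RefSeq windows were matched for 8 of the 9 genes. A GATA motif was present in 3 of them (Gp1bb, Gp5 and Gp6), against 26.5% of 32851 promoter windows of the same length, and CAGGAA in 3 others (Itga2b, Ppbp and Treml1), against 25.7%. The form AGATAA was present in Gp5 and Gp6, against 9.99% of all windows, and the ETS form CCGGAA in none of the 8, against 12.03%. A match describes letters only and is no measure of binding.

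Neither subunit of the fibrinogen receptor passed the test in any comparison. Itga2b (chr11:102453297-102470122 on mm10) encodes integrin alpha IIb, or CD41, which is made by megakaryocytes, platelets and some early blood progenitors. It had 3, 4 and 9 counts in BWF1 females, 7, 11 and 34 in BWF1 males, and 5, 8 and 5 in BALB/c females. The levels were 6.62, 6.45 and 18.5 CPM for BWF1 females, 13.7, 11.3 and 7.08 CPM for BWF1 males, and 3.59, 5.26 and 4.96 CPM for BALB/c females. Both BWF1 groups lay above every BALB/c library and overlapped each other. The difference from BALB/c females was 1.16 on the log2 scale in BWF1 females (SE 0.52, edgeR adjusted p = 0.287) and 1.05 in BWF1 males (SE 0.46, edgeR adjusted p = 0.242), and neither passed the test. Without BWF1 female 3 the difference in BWF1 females was 0.50. BWF1 females and BWF1 males had means of 10.5 ± 6.90 and 10.7 ± 3.36 CPM (SD, n = 3 each), a fitted difference of 0.11 on the log2 scale (SE 0.47, edgeR adjusted p = 0.980), and the sign of that difference turned when BWF1 female 3 or BWF1 male 3 was left out.

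Itgb3 (chr11:104608000-104670476 on mm10) encodes integrin beta 3, which pairs with alpha IIb in platelets and with alpha V in osteoclasts, endothelium, macrophages and mast cells. It had 17, 17 and 15 counts in BWF1 females, 12, 30 and 144 in BWF1 males, and 50, 62 and 38 in BALB/c females. Levels were 37.5, 27.4 and 30.8 CPM for BWF1 females, 23.5, 30.8 and 30.0 CPM for BWF1 males, and 35.9, 40.7 and 37.7 CPM for BALB/c females. Every BWF1 male lay below every BALB/c female, and BWF1 females overlapped both. The difference from BALB/c females was -0.41 on the log2 scale in BWF1 males (SE 0.25, edgeR adjusted p = 0.500) and -0.27 in BWF1 females (SE 0.26, edgeR adjusted p = 0.755), and neither passed the test. Markers of the other cells that make integrin beta 3 were highest in BALB/c females for 2 lists of 4, the endothelial and the mast cell lists, and in BWF1 males for the osteoclast list and the macrophage list given above. The 9 endothelial markers, all detected, summed to 108 to 147 CPM for BWF1 females, 151 to 186 CPM for BWF1 males and 194 to 220 CPM for BALB/c females. The 8 mast cell and basophil markers, all detected, summed to 12.9 to 17.6 CPM for BWF1 females, 14.4 to 17.7 CPM for BWF1 males and 23.7 to 29.7 CPM for BALB/c females. Most of this sum was 2 genes, Hdc and Gata2, and Gata2 is also a megakaryocyte factor. In the same order of groups, Hdc averaged 6.02, 4.86 and 13.6 CPM, and Gata2 7.73, 6.96 and 6.86 CPM. The 6 osteoclast markers, of which Calcr was at 0 everywhere, summed to 71.0 to 92.6 CPM for BWF1 females, 132 to 157 CPM for BWF1 males and 59.8 to 77.3 CPM for BALB/c females. Most of that sum was 1 gene, Acp5. On average it held 75.1 of 80.5 CPM for BWF1 females, 129 of 144 CPM for BWF1 males and 59.8 of 71.3 CPM for BALB/c females. The part of the cells of these lists in the Itgb3 level was not tested.

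The subunits of the von Willebrand factor receptor were at the limit of detection. Gp5 (chr16:30307685-30310779 on mm10), which thrombin cuts from the platelet surface, had 0, 1 and 1 counts in BWF1 females, 2, 1 and 16 in BWF1 males, and 1, 2 and 1 in BALB/c females. The groups overlapped, and the largest pooled ratio was 2.96 between BWF1 males and BALB/c females, with a counting interval of 0.985 to 11.98. Gp9 (chr6:87778072-87779768 on mm10), needed to bring the complex to the cell surface, had 0, 0 and 1 counts in BWF1 females, 1, 2 and 6 in BWF1 males, and 5, 0 and 2 in BALB/c females. Its pooled ratio was 0.359 between BWF1 females and BALB/c females, with a counting interval of 0.00797 to 2.80, so the sign was not resolved.

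Gp1bb (chr16:18620317-18622403 on mm10), whose product links to the large von Willebrand factor-binding chain of the complex, could not be measured. It stood at 0 counts in all 9 libraries, which allows up to 3 counts in each. Of its 2087 annotated exon bases, 92.9% also belong to Sept5 or Gm49601 on the same strand, and those genes held only 4 and 1 counts over all libraries. The other 8 genes shared 0% of their exon bases with another counted gene. The counter sets aside, as ambiguous, reads that fit more than 1 gene. The libraries had between 3531 and 38674 such reads, which cannot be given to a gene here.

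Gp6 (chr7:4363965-4397744 on mm10), which signals when platelets touch collagen, had 1, 0 and 2 counts in BWF1 females, 0, 0 and 2 in BWF1 males, and 0, 0 and 1 in BALB/c females. Treml1 (chr17:48359916-48367176 on mm10), which promotes platelet aggregation, had 0, 2 and 1 counts in BWF1 females, 1, 2 and 3 in BWF1 males, and 1, 1 and 0 in BALB/c females. Both genes overlapped between all groups. Between BWF1 females and BALB/c females the pooled ratio was 7.54 for Gp6, with a counting interval of 0.605 to 395.9, and 3.77 for Treml1, with an interval of 0.432 to 45.1. No difference in either gene was detectable at this depth.

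**Figure D2:**
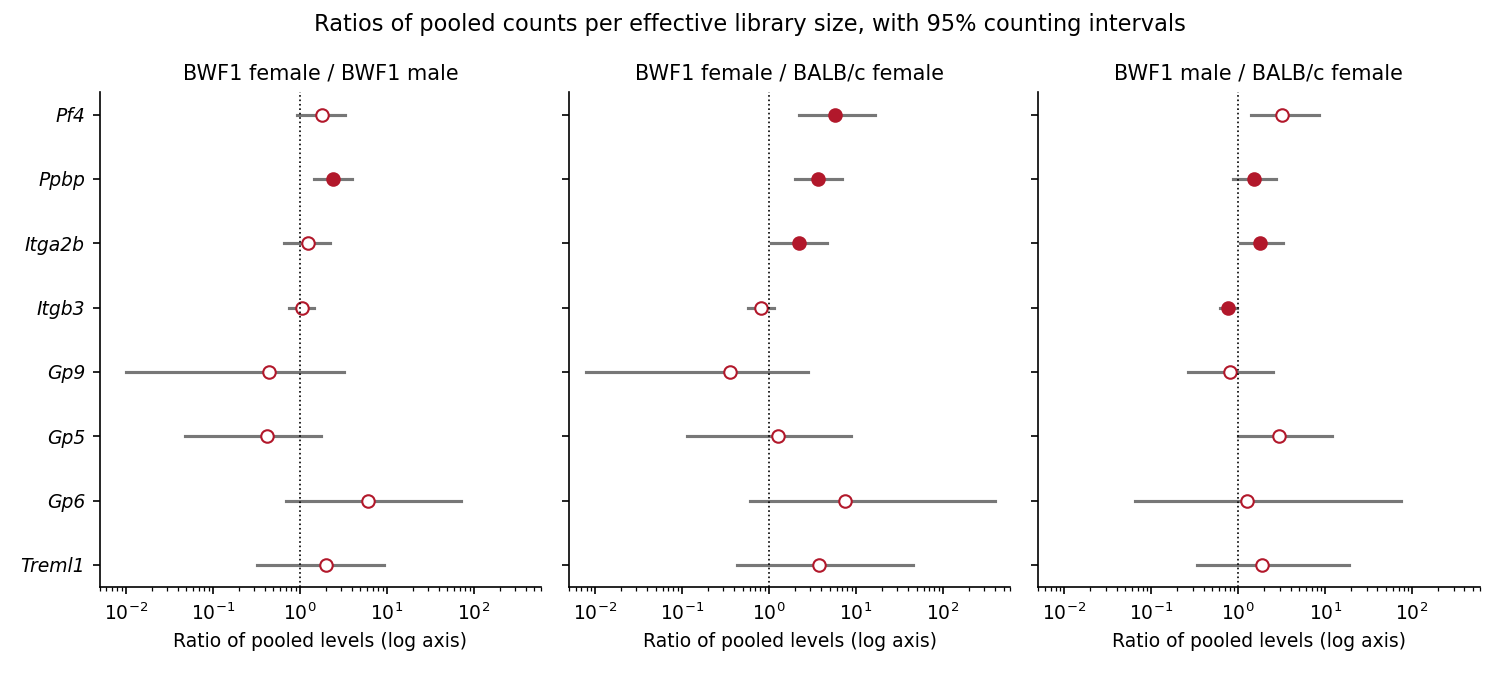
Ratio of pooled levels (horizontal log axis, counts over TMM-scaled library size, 3 libraries pooled per group) for the 8 detected genes in BWF1 females over BWF1 males, BWF1 females over BALB/c females, and BWF1 males over BALB/c females. Lines are 95% counting intervals, filled points are genes whose libraries did not overlap between the groups, and the dotted line marks a ratio of 1. Pf4 and Ppbp over BALB/c females lie highest of the genes with more than a few counts, at 5.75 and 3.70 for BWF1 females. The intervals of Gp9, Gp5, Gp6 and Treml1 include 1 in all panels. So do those of Pf4, Itga2b and Itgb3 for BWF1 females over BWF1 males, of Itgb3 for BWF1 females over BALB/c females, and of Ppbp for BWF1 males over BALB/c females.

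Counted by library overlap, 3 of the 8 detected genes (Pf4, Ppbp and Itga2b) were higher in every BWF1 female than in every BALB/c female and 0 were lower, against 6.93% of all genes tested that were higher and 8.83% that were lower without overlap. Ppbp alone separated BWF1 females from BWF1 males, against 13.3% of all genes in either direction. Itga2b and Ppbp were higher and Itgb3 lower in every BWF1 male than in every BALB/c female, against 17.3% of all genes in either direction. The median fitted log2 difference of the 8 genes was 0.42 between BWF1 females and BWF1 males, 1.44 between BWF1 females and BALB/c females, and 0.77 between BWF1 males and BALB/c females, with 6 of 8 above 0 each time. Over all 15276 genes the medians were 0, -0.0027 and -0.034. Fitted values of the genes with 1 to 3 counts in a group enter these medians and depend on the prior count of the fit.

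Summed over the 9 genes, the level was 77.2, 72.6 and 78.0 CPM for BWF1 females, 68.6, 56.4 and 55.4 CPM for BWF1 males, and 51.0, 57.2 and 49.6 CPM for BALB/c females. BWF1 females were highest without overlap, and the other groups overlapped. Without Itgb3 the sum was 39.7, 45.2 and 47.2 CPM for BWF1 females, 45.1, 25.6 and 25.4 CPM for BWF1 males, and 15.1, 16.4 and 11.9 CPM for BALB/c females. Both BWF1 groups then lay above every BALB/c library, and BWF1 male 1 stood within the range of the BWF1 females. The log2 ratio of mean sums between BWF1 females and BALB/c females was 0.53 with Itgb3 and 1.60 without it, and between BWF1 males and BALB/c females it was 0.19 with Itgb3 (-0.33 without TMM scaling) and 1.15 without Itgb3. Itgb3 made up 34.3% to 54.5% of the counts of the 9 genes in BWF1 libraries and 70.4% to 76.0% in BALB/c libraries.

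**Figure D3:**
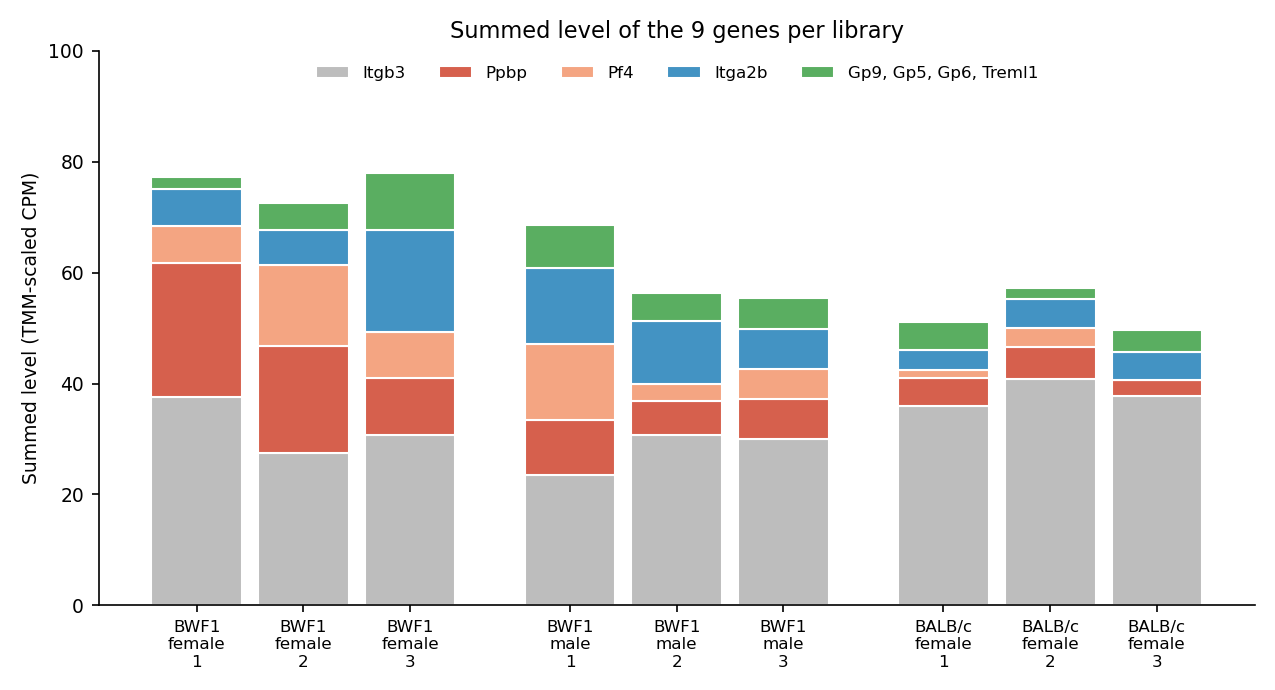
Summed level of the 9 genes (vertical axis, TMM-scaled CPM) in each library, stacked by gene, with the 4 genes of few counts together and Gp1bb at 0. BWF1 females stand at 72.6 to 78.0 CPM, BWF1 males at 55.4 to 68.6 CPM and BALB/c females at 49.6 to 57.2 CPM, and the gray Itgb3 segment is the largest part of each BALB/c bar.

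Levels of different genes were compared per kilobase of annotated exon. By the mean over the 9 libraries Ppbp (9.34 CPM per kilobase) and Pf4 (8.67) led, followed by Itgb3 (5.54), whose 5901 exon bases are the most of the 9 genes. Gp9 (1.63 CPM per kilobase) and Itga2b (1.58) were lower and close to each other, and Treml1 (0.895), Gp5 (0.757) and Gp6 (0.145) were lowest. The order differed between groups. In BWF1 females Ppbp (16.6 CPM per kilobase) led Pf4 (13.6) and Itgb3 (5.41), in BWF1 males Pf4 (10.3) led Ppbp (7.15) and Itgb3 (4.76), and in BALB/c females Itgb3 (6.46) led Ppbp (4.28), Pf4 (2.18) and Gp9 (2.11), with Itga2b at 0.844. The libraries of Ppbp, Pf4 and Itgb3 overlapped on this scale, as did those of Gp9, Itga2b, Treml1 and Gp5.

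Red cell precursors arise beside megakaryocytes and share regulators with them. Between BWF1 females and BWF1 males the median fitted log2 difference of erythroid markers was 1.41, above 0 like that of the platelet genes. Against BALB/c females it was -0.66 for BWF1 females and -2.55 for BWF1 males, where the medians of the platelet genes were above 0. The 13 erythroid markers in the table, all detected, summed to 1067, 837 and 2460 CPM for BWF1 females, 1361, 194 and 186 CPM for BWF1 males, and 1467, 4396 and 1790 CPM for BALB/c females. BWF1 male 1, whose sum without Itgb3 was the highest of the males at 45.1 CPM, was also the male with the highest erythroid sum, and its TMM factor of 0.530 was the lowest of the 9. BALB/c females had the lowest sums of platelet genes without Itgb3, and their erythroid sums overlapped those of BWF1 females, with the highest in BALB/c female 2. In the fit of all detected genes, which called 2.09%, 2.93% and 3.46% of all genes in the 3 comparisons, 8 of 13 erythroid markers were higher and 0 lower in BWF1 females than BWF1 males, 0 higher and 7 lower than in BALB/c females, and in BWF1 males 0 were higher and 12 lower than in BALB/c females. The fit of filtered genes, with 11 of the markers, called 1 higher and 0 lower, 0 higher and 2 lower, and 0 higher and 9 lower in the same order. That fit called 2.1%, 3.8% and 3.55% of all its genes. DESeq2, run on all detected genes, called 0, 2 and 3 of the markers. Their part in the results above was not tested.

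Another 22 genes of megakaryocytes and platelets, all detected, were examined. Only Vwf passed the edgeR test in BWF1 females against BALB/c females, where 2.93% of all genes were called. In BWF1 males against BALB/c females Vwf was higher and Sparc lower, where 3.46% of all genes were called. Between BWF1 females and BWF1 males 0 of 22 passed, against 2.09% of all genes. There 2 had an unadjusted p under 0.05, against 12% of all genes, and DESeq2 and limma-voom called 0. In that comparison 11 of the 22 genes had a fitted difference above 0. Their median log2 difference was 0.36 between BWF1 females and BALB/c females, with 14 of 22 above 0, and 0.16 between BWF1 males and BALB/c females, with 15 of 22 above 0. With genes at 0 in a group set to the bound that 3 counts over the group allow, or left out where both groups were under it, these medians were 0.42 and 0.16. The list summed to 182 to 222 CPM for BWF1 females, 161 to 222 CPM for BWF1 males and 158 to 181 CPM for BALB/c females.

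Vwf encodes von Willebrand factor, the ligand of the Gp1bb complex, and is made by megakaryocytes and endothelium. It stood at 13.2, 11.3 and 16.4 CPM for BWF1 females, 19.6, 12.3 and 12.3 CPM for BWF1 males, and 2.87, 3.29 and 6.94 CPM for BALB/c females. Both BWF1 groups lay above every BALB/c library. The difference from BALB/c females was 1.68 on the log2 scale in BWF1 females (SE 0.46, edgeR adjusted p = 0.0187) and 1.71 in BWF1 males (edgeR adjusted p = 0.00304). The sum of the endothelial markers, given above, was lower in both BWF1 groups than in BALB/c females. Most of it was Pecam1, at an average of 96.0 of 132 CPM for BWF1 females and 108 of 168 CPM for BWF1 males. For BALB/c females it was 110 of 203 CPM. Against BALB/c females, edgeR called 2 of the 9 markers lower in BWF1 females (Kdr and Stab2) and 0 in BWF1 males. Of all genes, 2.93% and 3.46% were called. The part of endothelial cells in the Vwf result was not tested. Both Vwf calls ended without TMM scaling (adjusted p = 0.359 in BWF1 females and 0.169 in BWF1 males), with DESeq2 (0.207 and 0.103), with the file-name tag in the fit (0.232 and 0.174) and without BALB/c female 1 (0.141 and 0.0627) or BALB/c female 2 (0.127 and 0.0635). The call in BWF1 females also ended without BWF1 female 3 (edgeR adjusted p = 0.0922), with limma-voom (0.0766) and in a fit of the 2 groups alone (0.0562).

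Sparc, a matrix glycoprotein of platelet granules and stroma, stood at 11.0, 17.7 and 30.8 CPM for BWF1 females, 19.6, 14.4 and 15.6 CPM for BWF1 males, and 30.2, 28.9 and 37.7 CPM for BALB/c females. It fell in BWF1 males relative to BALB/c females by 0.99 on the log2 scale (edgeR adjusted p = 0.0180), a call that was not made in the fit of filtered genes (edgeR adjusted p = 0.0583) and ended under 8 of 19 alternative settings, among them leaving out any 1 BALB/c library, BWF1 male 2 or BWF1 male 3, where adjusted p ran from 0.0502 to 0.215. Thbs1, which encodes the platelet granule protein thrombospondin 1, stood at 15.4, 11.3 and 24.6 CPM for BWF1 females, 21.6, 16.4 and 14.6 CPM for BWF1 males, and 9.34, 7.23 and 7.93 CPM for BALB/c females. All BWF1 libraries lay above all BALB/c libraries, but the differences of 1.04 (edgeR adjusted p = 0.154) and 1.03 (edgeR adjusted p = 0.0838) on the log2 scale did not pass the test. Nbeal2, needed to form alpha granules, had means of 72.6 ± 8.44 CPM for BWF1 females, 73.8 ± 12.4 CPM for BWF1 males and 65.9 ± 7.98 CPM for BALB/c females (SD, n = 3 each), and was called in no comparison. Clec1b, the podoplanin receptor of platelets, was picked out after its values were seen. It had 0, 2 and 2 counts in BWF1 females, 3, 3 and 1 in BWF1 males, and 0 in every BALB/c library. With the BALB/c group set at a floor of 3 counts, the ratio was 3.35 for BWF1 females and 1.46 for BWF1 males. These ratios leave out the counting error of the few BWF1 counts, so they are not lower limits. Clec1b was not called (edgeR adjusted p = 0.139 and 0.207).

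**Figure D4:**
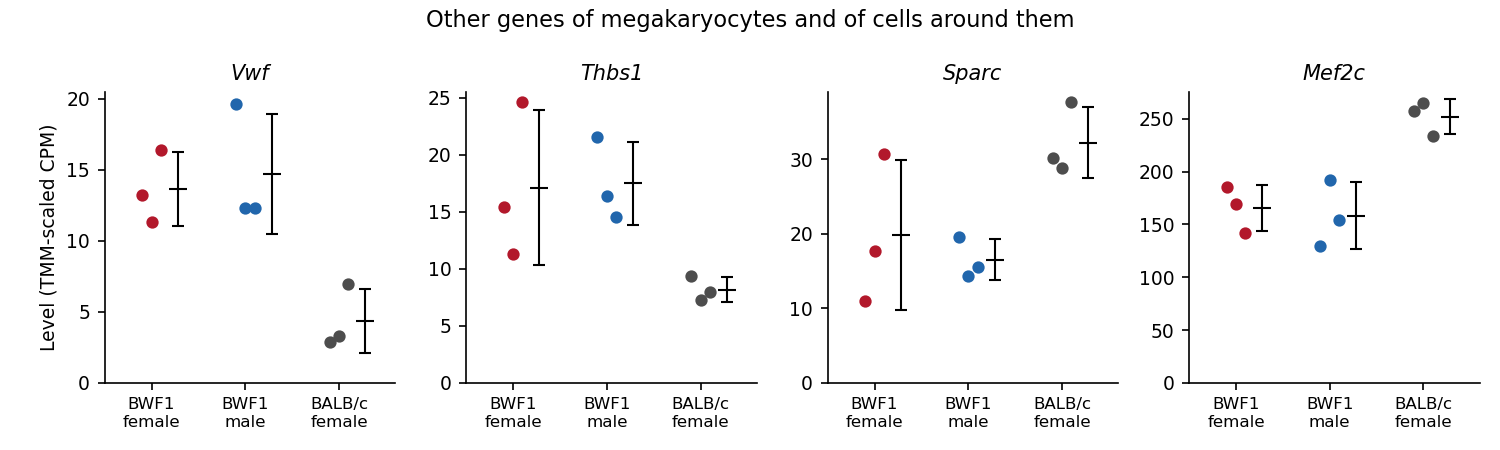
Level (vertical axis, TMM-scaled CPM, from 0, with its own scale in each panel) of Vwf, Thbs1, Sparc and Mef2c in BWF1 female, BWF1 male and BALB/c female libraries. Points are single libraries and bars are the mean and SD of 3 libraries. Vwf and Thbs1 are higher in every BWF1 library than in every BALB/c library, and Mef2c is lower.

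Among 24 signalling and cytoskeletal genes that platelets share with leukocytes, 0 passed the edgeR test at an adjusted p under 0.05 in any of the 3 comparisons. Of all genes, only 2.09%, 2.93% and 3.46% passed, so 0 of 24 says little about these genes. Their median log2 differences were -0.018 between BWF1 females and BWF1 males, 0.076 between BWF1 females and BALB/c females, and 0.18 between BWF1 males and BALB/c females. Myh9, Flna and Tln1, the most abundant of them, encode non-muscle myosin, filamin and talin, and averaged 1403, 519 and 576 CPM for BWF1 females, 1410, 658 and 685 CPM for BWF1 males, and 1246, 617 and 540 CPM for BALB/c females. All 3 genes are also expressed in other spleen cells. At an unadjusted p under 0.05 the fit of all detected genes had 3, 5 and 3 of the 24 in these comparisons, against 12%, 12.4% and 13.2% of all genes, DESeq2 called 0, 0 and 0, and limma-voom 0, 0 and 2.

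Of 12 transcription factors of megakaryocytes, 1 was higher and 2 were lower in BWF1 females than BALB/c females, 2 were lower in BWF1 males than in BALB/c females, and 0 passed the edgeR test between BWF1 females and BWF1 males, where 2 had an unadjusted p under 0.05, against 12% of all genes, and DESeq2 and limma-voom called 0. Of all genes, 2.93% were called between BWF1 females and BALB/c females and 3.46% between BWF1 males and BALB/c females. In the fit of filtered genes, with 10 of the 12, Mef2c alone was called in these 2 comparisons, where 3.8% and 3.55% of all its genes were called. DESeq2 and limma-voom, run on all detected genes, called 1 of the 12 each in either comparison. Mef2c, which acts in megakaryocytes and in B cells, stood at 185, 169 and 142 CPM for BWF1 females, 129, 192 and 154 CPM for BWF1 males, and 258, 265 and 234 CPM for BALB/c females. It fell by 0.61 in BWF1 females (edgeR adjusted p = 0.0179) and by 0.67 in BWF1 males (edgeR adjusted p = 0.00422) on the log2 scale relative to BALB/c females. The 8 B cell markers summed to 1957 to 2137 CPM for BWF1 females, 2010 to 2599 CPM for BWF1 males and 2733 to 2880 CPM for BALB/c females, and the part of B cells in the Mef2c result was not tested. Both Mef2c calls ended with the file-name tag in the fit (adjusted p = 0.458 in BWF1 females and 0.301 in BWF1 males) and without BALB/c female 2 (0.119 and 0.0610). Of 19 alternative settings, 7 ended the Mef2c call in BWF1 females and 3 ended that in BWF1 males. Fli1, an ETS factor of megakaryocytes, endothelium and lymphocytes, fell by 0.67 in BWF1 females relative to BALB/c females (edgeR adjusted p = 0.0231), a call that was not made in the fit of filtered genes (edgeR adjusted p = 0.0824) and ended under 12 of 19 alternative settings. Runx1 averaged 69.5 ± 4.88 CPM for BWF1 females, 72.4 ± 24.2 CPM for BWF1 males and 69.7 ± 8.33 CPM for BALB/c females (SD, n = 3 each) and was called in no comparison.

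The remaining calls among the transcription factors, named after their values were seen, were Zfpm1 and Tal1, which both serve red cell precursors as well. Zfpm1, encoding the GATA1 partner FOG1, was higher in BWF1 females than BALB/c females by 0.78 on the log2 scale (edgeR adjusted p = 0.0168), but without BWF1 female 3 the difference was -0.14 (adjusted p = 0.848). The Zfpm1 call held under only 7 of 19 alternative settings. Tal1 fell in BWF1 males relative to BALB/c females by 1.10 on the log2 scale (edgeR adjusted p = 0.0265), a call that ended under 10 of 19 alternative settings. Gata1 had 0, 2 and 6 counts in BWF1 females, 1, 4 and 44 in BWF1 males, and 13, 21 and 13 in BALB/c females, and passed in no comparison.

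Over the 9 libraries, the 5 genes whose log2 level was most like the log2 summed level of the 9 genes were Pfkp (Pearson r = 0.972), Polr3e (0.959), Marcks (0.953), Ccp110 (0.953) and Pola1 (0.949), out of 7717 genes compared. Pfkp, which encodes the platelet-type isoform of phosphofructokinase and is also expressed in other cells, stood at 57.3, 53.2 and 57.5 CPM for BWF1 females, 49.0, 46.1 and 40.2 CPM for BWF1 males, and 38.8, 44.7 and 36.7 CPM for BALB/c females. The points share the group differences and the scaling of each library, so these values describe likeness only.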

How the data were processed

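The deposited values are raw read counts per gene in 9 libraries, with the summary lines that HTSeq writes, per the file headers and layout. The submitters' processing notes list FastQC 0.10.1, STAR 2.6 and build mm10. The annotation release, counting mode and strand setting are not given in the sources used here. The labels describe rRNA depletion.

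Names and coordinates came from GENCODE M21, which matched 21939 of 21965 identifiers. Counts were scaled by TMM and tested with edgeR 4.0.16 (quasi-likelihood, Benjamini-Hochberg, adjusted p under 0.05) over all 9 libraries without covariates. The first fit kept 7719 genes (filterByExpr, minimum count 10), and a second fit kept all 15276 genes with at least 1 count, since the filter removes 7 of the 9 genes. Gene results are from the second fit unless said otherwise. Its estimated prior degrees of freedom were infinite, against 19.4 in the first, so it treats the spread around its trend as known, which can make p-values too small. Scripts were tested on simulated data. Single genes were also compared by exact permutation of log2(CPM + 1). Ratios of pooled counts carry exact binomial 95% intervals. Alternatives used DESeq2 1.42.0, limma 3.58.1, other filters, the file-name tag, a replicate block, and each library left out. The design text gives 3 per group without saying that each library is a separate mouse, so p-values refer to libraries and not to mice. In the second fit the spread between libraries is taken from the trend over genes, not from the single gene. Sequences are from RefSeq.

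All 9 genes are named. Of the other lists of megakaryocyte genes, those called and the 3 of highest mean level are named, and others are marked as picked after their values were seen. For lists of other cell types the summed level is given. The members and lists were chosen with earlier results of these data known, and lists give no independent evidence.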

Additional observations from a re-analysis of the deposited data

How the results depend on the processing

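In edgeR's fit of filtered genes, 162 genes were called between BWF1 females and BWF1 males. The same fit called 293 between BWF1 females and BALB/c females and 274 between BWF1 males and BALB/c females. The first count was 60 without TMM scaling, 105 with DESeq2, 246 with limma-voom, 101 with only the 2 groups in the fit and 319 without the filter. The second was 130 without TMM scaling, 169 with DESeq2, 161 with the file-name tag and 448 without the filter. The third was 650 with limma-voom, 153 with the tag, 529 without the filter and 484 with edgeR's older quasi-likelihood method, which was chosen after seeing the data. Leaving out each library gave 57 to 202, 183 to 372 and 119 to 381 calls.

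Of the platelet genes, 2 were called between BWF1 females and BALB/c females in the fit of all detected genes. That count was 0 without TMM scaling, 0 with DESeq2, 0 with the tag and 1 with a total of at least 10 counts. It was 0 to 2 with each library left out. Between BWF1 males and BALB/c females, 0 were called, against 0 to 1 with each library left out, and between BWF1 females and BWF1 males 0 were called under all 19 alternatives. The log2 ratio of summed levels without TMM scaling was 0.58 between BWF1 females and BWF1 males, 0.24 between BWF1 females and BALB/c females and -0.33 between BWF1 males and BALB/c females. With TMM scaling kept and Itgb3 left out, the ratio was 1.60 and 1.15 in the comparisons of BWF1 females and BWF1 males with BALB/c females. Dropping the TMM scaling moved the median gene by 0.16, -0.28 and -0.43 on the log2 scale in the 3 comparisons. Apart from what each setting removes, the cause of these changes was not tested.

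Signs turned for genes that were not called. With each library left out in turn, Itga2b between BWF1 females and BWF1 males ran from -0.56 (BWF1 female 3 left out) to 0.38, with -0.25 on leaving out BWF1 male 3, and Treml1 from -0.076 to 1.29. Between BWF1 females and BALB/c females, Gp5 ran from -0.12 to 0.78 and was -0.34 with the tag, Gp6 was -0.82 with the tag, and the called gene Zfpm1 ran from -0.14 to 1.13. Between BWF1 males and BALB/c females, Gp9 ran from -0.91 to 0.81 and was 0.30 with limma-voom, and Gp6 ran from -1.48 to 2.11 and was -3.56 with the tag and -0.75 with the replicate block.

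No pairing of libraries by replicate number was seen: over genes, deviations of libraries with the same number correlated between -0.0895 and 0.0576. Those with different numbers correlated between -0.115 and 0.137. Libraries this shallow cannot exclude a pairing by such values. With replicate number as a block, edgeR's fit of filtered genes called 118, 257 and 235 genes in the 3 comparisons. Its fit of all detected genes with that block called 0, 2 and 0 of the platelet genes. Depth limits the calls: 7 of the 9 genes fell below the filter, and counts of 0 allow up to 6.62 CPM in the shallowest library.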

Other observations

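Markers of other cells that could accompany megakaryocytes were measured as summed levels. The 8 stem and progenitor markers, led by Cdk6 and Myb, summed to 129 to 150 CPM in BWF1 females, 98.1 to 127 CPM in BWF1 males and 98.1 to 134 CPM in BALB/c females. In edgeR's test 0 of 8 passed at an adjusted p under 0.05 in any comparison, against 2.09%, 2.93% and 3.46% of all genes. At an unadjusted p under 0.05 there were 1, 0 and 1, against 12%, 12.4% and 13.2% of all genes, and DESeq2 and limma-voom called 0. The 8 neutrophil markers summed to 147 to 368 CPM in BWF1 females, 272 to 637 CPM in BWF1 males and 263 to 359 CPM in BALB/c females. The 8 T cell markers summed to 271 to 368 CPM in BWF1 females, 514 to 566 CPM in BWF1 males and 344 to 496 CPM in BALB/c females.

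When Itgb3 was left out of the summed level, a choice made after the data were seen, the 5 genes most like it over the 9 libraries were Romo1 (Pearson r = 0.995), Acaa1a (0.986), Sf3b2 (0.967), Samm50 (0.957) and Hnrnpm (0.955), of which none was among the 5 most like the sum with Itgb3.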
